A study of Mus musculus with 6 samples.

Results

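The clustered protocadherin locus of mouse chromosome 18 was covered on a tiling array of methylated DNA, and its members here are the non-control probes whose mm9 start lies between 37.05 and 38 Mb on that chromosome. There were 475 such probes among the 174638 non-control probes of the array. Pancreatic DNA of mouse offspring aged 12 weeks was immunoprecipitated with an antibody against methylated DNA (MeDIP), labelled with Cy5, and hybridised together with Cy3-labelled input DNA of the same sample. The glucose intolerance group was the offspring of glucose-intolerant dams, which the series also calls hyperglycemic (3 arrays), and the normal tolerance group was the offspring of control dams whose glucose tolerance was normal (3 arrays). Strain, sex, diet and the way the dams became hyperglycemic are not given in the labels used here, and neither is whether the 3 samples within a group represent different animals or litters. The p-values therefore reflect sample-to-sample spread only, part of which may be technical. Pancreatic tissue holds several cell types, so a change in the mix of its cells and a change of methylation within a cell type cannot be told apart.

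Clustered protocadherins are cell-surface adhesion proteins best known from neurons. In the alpha and gamma clusters each variable exon has a promoter of its own and is spliced to constant exons that the whole cluster shares, whereas the beta genes are single-exon genes. A neuron transcribes only some of the variable exons, and methylation of a variable exon's promoter is known to go with its silence.

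The value of a probe is the log2 ratio of MeDIP over input signal, shifted so that the median non-control probe of each array has the value 0. A level is the mean of this value over the 6 arrays. A difference is the mean of the glucose intolerance group minus that of the normal tolerance group. Because the ratio depends on the CpG content and the sequence of a probe, a level is not a methylation percentage.

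The locus probes lay between positions 37078744 and 37979422. The nearest probes outside the rule start at 36961549 and 38094580, so the boundaries of the rule cut through no dense stretch of probes. The widest distances between neighbouring probe starts inside the locus, 119405 and 119449 bp, divide it into 3 spans, and the next widest distance was 68294 bp. The first span (chr18:37078744-37303991) held 121 probes, the second (chr18:37423352-37678488) 171 and the third (chr18:37797880-37979422) 183. Within the spans the probes stood in short tiles, here defined as runs of probes with starts at most 1000 bp apart. There were 61 tiles, with a median of 8 probes and 1671 bp: 15 in the first span, 22 in the second and 24 in the third. In the RefSeq gene table (GRCm38.p6), 14 Pcdha, 22 Pcdhb and 22 Pcdhg genes follow each other in this order, and 2 further protein-coding genes, Slc25a2 and Taf7, lie between the last Pcdhb and the first Pcdhg gene. That table is of another build than the probes, so no tile was assigned to a gene, and the spans are named by their order only.

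Input signal was dim in much of the locus. On the 3 arrays of the glucose intolerance group 52.2%, 51.4% and 56.6% of the locus probes had input signal well above background, and on those of the normal tolerance group 81.7%, 68.4% and 69.7%, against 71.0% to 78.7% and 85.5% to 92.4% of all probes. MeDIP signal was well above background for 51.2% to 62.1% of the locus probes over the 6 arrays, against 75.9% to 83.2% of all probes. A probe was kept for testing only where its input was well above background on all 6 arrays: 219 of the 475 locus probes passed (46.1%), against 66.4% of all probes, and the other 256 were left out. The kept probes formed 26 tested regions, each a run of at least 3 kept probes with starts at most 500 bp apart, which together held 117 probes. The first span held 6 of them, the second 9 and the third 11. The scanner files place the arrays in 3 scans: one held all 3 arrays of the glucose intolerance group, one held normal tolerance replicate 1 and one held normal tolerance replicates 2 and 3. No scan held both groups, so scan and group cannot be told apart. The glucose intolerance group was scanned at the lower red (MeDIP) detector voltage, 359 V against 394 V and 421 V. Input was read in the other channel, whose voltage is not given here.

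The locus lay below the middle of the array along most of its length. The level of its 61 tiles, computed over all probes with no filter on input, had a median of -0.51 (interquartile range -0.76 to -0.27). It was -0.11 over all 21986 tiles of the array and -0.10 over the 492 tiles of chromosome 18 outside the locus. Spots with neither channel well above background entered these tile values too, and at such spots the ratio says little about MeDIP enrichment. Over the 44 locus tiles with at least 3 kept probes the median level was -0.40, against -0.09 over such tiles of the whole array. Only 5 of 61 tiles (8.20%) had a level above 0, against 40.8% of all tiles, and none exceeded 0.5, against 8.59%. At the low end the locus did not stand apart in the same way: 6 tiles (9.84%) lay below -1, against 8.17% of all tiles. Set against the distribution of all tiles, 31 of the 61 locus tiles (50.8%) lay at or below the 25th percentile and 2 (3.28%) above the 75th. Over these unfiltered tiles the spans were alike, with medians of -0.43, -0.42 and -0.53 from the first to the third.

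On each array the median tile of the locus lay below the median of all tiles. The locus medians were -0.55, -0.39 and -0.35 on the glucose intolerance arrays and -0.77, -0.33 and -0.47 on the normal tolerance arrays, whereas the medians of all tiles lay between -0.23 and -0.05. Normal tolerance replicate 1 was the lowest array of the 6 in the locus: it had the lowest value in 37 of the 61 tiles (60.7%), against 38.3% of all tiles. Over the 26 tested regions the median level was -0.30, against -0.03 over all 18562 regions, and was -0.20 without normal tolerance replicate 1. The median was -0.52 in the 6 regions of the first span, -0.03 in the 9 of the second and -0.35 in the 11 of the third. Over tested regions the spans were thus less alike than over tiles, and the second lay near the median of all regions. Of the 26 regions 6 (23.1%) had a level above 0, against 48.2% of all regions, and none had a level above 0.5, against 15.1%.

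Tiles within a span differed from each other by more than the spans did. The highest tile, chr18:37878911-37880579 in the third span, had values of 0.43, 0.18 and 0.28 on the glucose intolerance arrays and 0.57, 0.30 and 0.47 on the normal tolerance arrays. It lay above 85.3% of all tiles. The next highest were chr18:37636123-37637815 in the second span with a level of 0.24, and in the third span chr18:37803359-37804916 with 0.12, chr18:37797880-37799654 with 0.10 and chr18:37964770-37966522 with 0.05. These 5 are all the tiles with a level above 0, and 4 of them lay in the third span. The lowest tile was chr18:37606142-37607667 in the second span, with -1.96, -1.46 and -1.58 on the glucose intolerance arrays and -1.97, -0.67 and -1.30 on the normal tolerance arrays. Only 1 of its 7 probes had input above background on all arrays. In the first span chr18:37178584-37180310 had a level of -1.43, with -1.42, -1.34 and -1.10 in the glucose intolerance group and -2.37, -0.94 and -1.40 in the normal tolerance group. Its lowest value, again, came from normal tolerance replicate 1. The other 4 tiles below -1 were chr18:37593980-37595709 (level -1.44), chr18:37570190-37571637 (-1.27, with no kept probe among its 7), chr18:37848213-37849881 (-1.24) and chr18:37156363-37157916 (-1.02).

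In windows of 50 kb the median level of the kept probes ran from -0.76 in the window that starts at 37200000 (7 kept probes) to 0.83 in the one that starts at 37300000 (6 kept probes). Among the single kept probes 93 of 219 (42.5%) had a level above 0, against 54.8% of the 2565 kept probes on chromosome 18 outside the locus. Levels above 1 were found for 12 (5.48%), against 14.6%, and levels below -1 for 61 (27.9%), against 16.9%. Neighbouring probes differed widely: the range of probe levels within a tested region had a median of 2.15 log2 units in the locus (from 0.93 to 5.76), against 2.07 over all regions.

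The level varied with probe length, and probe length differed between the locus and the rest of the array. Probes on this array were 45 to 60 nt long. In the locus 163 of 475 probes (34.3%) had the full 60 nt, against 13.1% of all other probes, and 120 (25.3%) had 45 nt, against 49.97%. Over all probes, kept or not, longer ones had lower ratios in the locus and elsewhere alike. The median level over all locus probes was 0.41 at 45 nt, -0.30 at 46 to 50 nt, -0.76 at 51 to 55 nt, -0.80 at 56 to 59 nt and -0.83 at 60 nt. The same medians over the other probes were 0.46, -0.16, -0.59, -0.91 and -0.99. Within a length class the locus thus lay nearer the rest of the array, from 0.17 log2 units below it at 51 to 55 nt to 0.16 above it at 60 nt. At 60 nt, however, most spots were dim. In the locus 17.4% of MeDIP and 32.9% of input spots of that length were well above background, against 21.9% and 43.2% elsewhere. Over kept probes alone the 60-nt class differed more, at -0.94 in the locus (24 probes) against -1.86 elsewhere. In the locus the kept probes of 56 to 59 nt lay lower than that, at -1.60 (19 probes). The share of probes that passed the filter on input also fell with length, from 82.5% of the locus probes at 45 nt to 14.7% at 60 nt, against 81.6% and 22.8% elsewhere. The 60-nt share was 40.5% in the first span, 35.1% in the second and 29.5% in the third. The part of probe length in the low level of the locus was not tested further.

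Inside the tiles the level was lowest at the centre. In the 57 locus tiles of 7 to 9 probes, the median probe level was -0.76 within 200 bp of the tile's centre (96 probes), -0.46 at 200 to 400 bp (99 probes), -0.34 at 400 to 600 bp (96 probes) and -0.24 beyond 600 bp (161 probes). Over the other tiles of this size the same medians were -0.11, 0.01, 0.07 and -0.06, a narrower range. Probe length moved with this profile: 52.1% of the central locus probes had 60 nt, then 40.4%, 26.04% and 24.8% outward, against 11.7% to 14.9% elsewhere. Among the 45-nt probes alone the central bin of the locus had a median of -0.36, but over only 12 probes. Further out it was 0.73 (18 probes), 0.47 (34 probes) and 0.36 (49 probes), whereas the 45-nt probes of other tiles had 0.36, 0.47, 0.54 and 0.44 in the same order. The 60-nt probes of the locus had no such dip, with -0.79 at the centre (50 probes) and then -0.88 (40 probes), -0.76 (25 probes) and -1.22 (40 probes) outward. At a fixed probe length the lowest bin was thus the central one for 45 nt, on few probes, and the outermost one for 60 nt, and no test was made of either.

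The groups were compared to see whether maternal glucose intolerance went with a different MeDIP ratio in the offspring. No region of the locus passed an adjusted p of 0.05 (limma, Benjamini-Hochberg over all 18562 regions): 0 of 26 in the locus, against 0% of all regions. At an unadjusted p under 0.05, 5 of the 26 regions (19.2%) passed, against 15.8% of all regions. Of these, 4 were higher in the glucose intolerance group (15.4%, against 13.3% of all regions) and 1 was lower (3.85%, against 2.51%). The 3 arrays of each group did not overlap, with the glucose intolerance group higher, in 3 regions (11.5%, against 17.5%), and with that group lower in 1 (3.85%, against 4.62%). These shares lay near those of the whole array and give no result particular to the locus.

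The median difference over the 26 regions was 0.14, beside a median of 0.12 over all regions. The difference was above 0 in 18 of 26 regions (69.2%), against 70.9% of all regions. On single arrays the median region of the locus stood at -0.35, -0.06 and -0.15 in the glucose intolerance group (-0.19 ± 0.15, SD, n = 3) and at -0.68, -0.20 and -0.46 in the normal tolerance group (-0.45 ± 0.24, SD, n = 3), and the groups overlapped. The lowest of these values came from normal tolerance replicate 1, which was the lowest array in 16 of the 26 regions (61.5%), against 27.5% of all regions. Without it the median difference of the locus was -0.02, with 12 regions higher and 14 lower, while the median over all regions was 0.13. The median difference by span was 0.26, 0.01 and 0.14. With the ratios loess-normalised within each array, which puts the median of all regions at -0.03, the split of the locus was 14 higher and 12 lower.

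The largest difference with the lowest p was at chr18:37170514-37170975 in the first span, a region of 3 probes. Its values were 0.19, 0.21 and 0.38 in the glucose intolerance group and -0.51, -0.37 and -1.03 in the normal tolerance group, with no overlap. The difference was 0.90 (SE 0.18, 1.87-fold, limma adjusted p = 0.207). All 3 probes had a higher mean in the glucose intolerance group, but unequally: the middle probe, chr18:37170726-37170775, differed by 1.98 and the outer ones by 0.24 and 0.08. One normal tolerance spot of the region was an outlier and was left out, and 1 MeDIP spot was not above background. The difference was 0.62 when each dim MeDIP spot was set to its array's lowest signal above background and the arrays were centred again. The centring moved differences by itself: the region at 37915161, with every MeDIP spot above background, went from 0.68 to 0.60. Over all 9 probes of the tile at 37170514 the difference was 0.45.

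At chr18:37915161-37915828 in the third span, a region of 4 probes, the difference was spread over all probes. The region had -0.04, 0.13 and -0.02 in the glucose intolerance group and -0.75, -0.44 and -0.80 in the normal tolerance group, again with no overlap. The difference was 0.68 (SE 0.14, 1.61-fold, limma adjusted p = 0.207), and its 4 probes differed by 0.33 to 1.04. Every MeDIP spot was above background. By channel, the MeDIP signal was 0.18 log2 units higher and the input signal 0.37 lower in the glucose intolerance group. Each channel was centred on its own array median, so these parts do not add up exactly to the ratio difference. The input part was the larger. This region and the one at 37170514 passed the adjusted threshold under other settings. Their limma adjusted p was 0.0334 and 0.0193 after normexp background correction, which called 1857 of all regions, and 0.0215 for both in the authors' table, which called 1516. With the scan as a random block it was 0.858 for both.

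A region of 4 probes in the second span, chr18:37648497-37649414, had -0.59, -0.07 and -0.22 in the glucose intolerance group and -1.33, -0.87 and -1.15 in the normal tolerance group. These did not overlap, and the difference was 0.82 (SE 0.18, 1.77-fold, limma adjusted p = 0.210). The probe at chr18:37648702-37648755 differed by 1.76, and its MeDIP signal was not above background on any normal tolerance array. The MeDIP signal of the region was 0.13 higher and its input signal 0.56 lower in the glucose intolerance group. Over all probes of the run with no filter on input the difference was 0.42.

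The lowest region of the locus, chr18:37848213-37849683 in the third span (6 probes, level -1.54), was the fourth with an unadjusted p under 0.05 and a higher glucose intolerance mean. Its values were -1.68, -0.66 and -1.13 against -2.41, -1.29 and -2.04, which overlap. The difference was 0.76 (SE 0.33, limma adjusted p = 0.311). MeDIP signal was above background in 12 of its 18 glucose intolerance spots and 10 of its 18 normal tolerance spots. With single arrays left out its difference ranged from 0.51 to 1.07, and in the authors' table its limma adjusted p was 0.0460. With the scan as a random block the adjusted p was 0.858, and the unadjusted p was no longer under 0.05. The same held with loess and when centred on the tested probes. It also held without glucose intolerance replicate 2 or 3 or normal tolerance replicate 1 or 3, each left out in turn.

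Next by p among the higher regions was chr18:37827728-37829130 in the third span, 7 probes, at -0.38 ± 0.24 against -0.77 ± 0.35 (SD, n = 3), and the groups overlapped. Its difference of 0.40 had a limma adjusted p = 0.363.

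Fewer regions were lower in the glucose intolerance group, and 1 had a p under 0.05. This was chr18:37644313-37644995 in the second span, 4 probes, with -0.27, -0.34 and -0.04 in the glucose intolerance group against 0.00, 0.33 and 0.12. The groups did not overlap, and the difference was -0.37 (SE 0.14, 1.29-fold, limma adjusted p = 0.284). It rested on its first probe, which differed by -1.64, while the other 3 differed by 0.28, 0.08 and -0.19. It lies a few kb from the second-span region at 37648497 described above, which differed in the opposite direction.

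The region with most probes in the third span, chr18:37973656-37975183 (8 probes), was also among the lowest in level. It stood at -1.01 ± 0.18 against -0.72 ± 0.22 (SD, n = 3), a difference of -0.29 (limma adjusted p = 0.387), with 6 of 8 probes lower. The other 3 regions chosen for the lowest p in this direction had differences of -0.17 at chr18:37601146-37602510, -0.15 at chr18:37303048-37303991 and -0.15 at chr18:37633084-37633694. In each of these 3 the groups overlapped.

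The regions highest in level differed little between the groups. At chr18:37633084-37633694 in the second span, 3 probes with a level of 0.49, the groups stood at 0.42 ± 0.20 and 0.56 ± 0.09 (SD, n = 3). At chr18:37303048-37303991, the last stretch of the first span, 5 probes had a level of 0.44, with 0.36 ± 0.10 and 0.52 ± 0.25. At chr18:37797880-37799058, the first stretch of the third span, 5 probes had 0.30 ± 0.06 and 0.22 ± 0.05. These 3 regions had every MeDIP spot above background.

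Among the lowest regions chr18:37179369-37180310 in the first span (4 probes, level -0.99) showed how much a single array could weigh. Its values were -1.16, -0.79 and -0.64 in the glucose intolerance group and -2.17, -0.18 and -1.03 in the normal tolerance group. The difference was 0.26 with all arrays and -0.26 without normal tolerance replicate 1. The regions with most probes in the first and second spans, chr18:37248552-37250239 (8 probes) and chr18:37453627-37454924 (5 probes), differed by 0.25 and 0.22, and their groups overlapped. The first of these had a limma adjusted p of 0.0471 after normexp. The remaining 12 regions of the locus differed by -0.12 to 0.39, 9 of them higher and 3 lower, with adjusted p from 0.404 to 0.964 in the same fit.

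Among single probes, 0 of 219 in the locus passed an adjusted p of 0.05 in limma, against 0.000878% of the 113885 probes tested. At an unadjusted p under 0.05, 25 were higher in the glucose intolerance group (11.4%, against 10.4% of all probes) and 11 were lower (5.02%, against 5.56%). The difference was above 0 for 137 of 219 (62.6%), against 62.9%. Of the 206 locus probes with a value on all arrays, 31 (15%) had glucose intolerance values above all normal tolerance values, against 13.2%, and 15 (7.28%) had them below, against 8.14%.

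The largest probe differences ran in both directions. At chr18:37879119-37879172, inside the highest tile of the locus, the values were -1.72, -1.89 and -2.38 in the glucose intolerance group and -0.28, -0.64 and -0.16 in the normal tolerance group. The difference was -1.64 (SE 0.25, limma adjusted p = 0.103). With each channel centred apart, the MeDIP signal of this probe was 0.86 lower and its input signal 0.90 higher, in log2 units. At chr18:37644313-37644370, the probe on which the lower region of the second span rested, the values were -1.82, -1.49 and -1.43 against -0.29, 0.46 and 0.02. Its difference was also -1.64 (SE 0.26, limma adjusted p = 0.103), but here both channels were dimmer in the glucose intolerance group, with log2 differences of -2.66 for MeDIP and -0.89 for input. The probe next by p in this direction, chr18:37303048-37303104, differed by -1.09 (limma adjusted p = 0.189). The first 2 probes passed the adjusted threshold in several other settings, with a limma adjusted p of 0.0310 and 0.0248 after quantile normalisation and of 0.0396 and 0.0364 without normal tolerance replicate 1. It was 0.105 and 0.130 with loess, and 0.938 for both with the scan as a random block.

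Higher in the glucose intolerance group was chr18:37515020-37515064 in the second span, with 0.07, 0.55 and 0.20 against -0.94, -0.75 and -1.74. Its difference was 1.42 (SE 0.30, limma adjusted p = 0.131). At chr18:37664055-37664099 the values were 0.80, 0.53 and 0.25 against -0.48, -0.30 and -0.44, a difference of 0.93 (limma adjusted p = 0.148). At chr18:37840380-37840433 in the third span they were -0.80, -0.67 and -0.49 against -2.41, -1.18 and -2.13, a difference of 1.26 (limma adjusted p = 0.162), with MeDIP signal above background on only 1 of the 3 normal tolerance arrays. None of these 3 probes belonged to a tested region.

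Over whole tiles, with every locus probe included, also those at background in both channels, the shares were similar. Some such probes differed between the groups without MeDIP signal. At chr18:37098705-37098764 and chr18:37119444-37119503 no spot was above background in either channel, yet the groups did not overlap. Their log2 differences were -0.08 and 0.01 for MeDIP and 1.18 and 1.21 for input. At other such probes the groups overlapped. No tile passed an adjusted p of 0.05 in limma (0 of 61 in the locus, against 0% of all 21986 tiles). At an unadjusted p under 0.05, 9 were higher in the glucose intolerance group (14.8%, against 13.4% of all tiles) and 3 were lower (4.92%, against 2.83%). The groups did not overlap in 7 tiles with the glucose intolerance group higher (11.5%, against 17.9%) and in 4 with it lower (6.56%, against 4.58%). The median tile difference was 0.11 in the locus and 0.11 over all tiles.

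Across the 26 regions the arrays correlated with each other, in every pair less closely than across all regions. Pearson's r between 2 arrays, across regions, was 0.83 to 0.90 within the glucose intolerance group, 0.81 to 0.90 within the normal tolerance group and 0.57 to 0.90 between the groups. Across all regions it was 0.91 to 0.95, 0.89 to 0.92 and 0.78 to 0.95 in the same order. These are descriptions across regions of the same arrays, and regions are not independent replicates.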

How the data were processed

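Genomic DNA of 6 pancreas samples was hybridised as MeDIP (Cy5) against input (Cy3) on 2-colour arrays with the same orientation throughout, per the labels' protocols. The deposited scanner files hold spot intensity values from Agilent Feature Extraction 11.0.1.1 with its ChIP protocol and mm9 coordinates, per the file headers. Their processed intensities are already background-subtracted and dye-normalised. Each holds 180465 spots, of which 5827 are controls. A deposited log10 ratio served as a check only: it lay within 0.01 log2 units of the ratio used here for 96.7% of spots. A further table of log2 values was deposited by the authors; its steps are not given in the sources used here, and it served as an alternative.

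Here log2 ratios of processed signals were centred on each array's median of non-control probes, with no loess or quantile step. Non-uniformity outliers (1.77% of spots) were set missing, and probes whose input was not well above background on all 6 arrays were left out. Groups were compared over all probes, regions or tiles with limma 3.58.1 (lmFit, eBayes) in R 4.3.3, with Benjamini-Hochberg adjustment. A probe needed 2 values per group. The fit was tested on simulated data. The number of arrays, 3 per group, limits the precision.

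The regions named are, per direction, the 5 of lowest p, together with the 3 highest and 3 lowest in level, and the one with most probes per span. Of probes, the 3 of lowest p per direction are named. The locus and these rules were chosen with earlier results of these data known. Tiles and their profile were defined after the probe layout was seen. Alternatives changed the centring, background correction (normexp, offset 50), normalisation, filters, run length, blocks and arrays used. The labels do not state that same-numbered samples were paired, and the reported fit used no pairing. Deviations from the group means of same-numbered arrays correlated across regions at 0.57, 0.54 and 0.04. These values do not settle whether the numbers pair the samples.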

Additional observations from a re-analysis of the deposited data

How the results depend on the processing

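Of the regions in the locus, 0 passed an adjusted p of 0.05 under most settings, with limma throughout. Exceptions were normexp background correction with 3 of 26 (1857 of 18562 over the array) and the authors' table with 3 of 26 (1516 of 18563). The replicate block was another, with 4 of 26 (859 of 18562). Regions at an unadjusted p under 0.05, 5 of 26 as reported, numbered 8 with normexp (30.8%, against 35.1% over the array). They numbered 10 in the authors' table (38.5%, against 30.7%) and 8 with the replicate block (30.8%, against 25.8%). With the scan as a random block (estimated correlation 0.38) they numbered 3 (11.5%, against 5.05%). Other settings changed the number tested. With no filter on input they numbered 12 of 61 (19.7%, against 16%), and as tiles 12 of 61 (19.7%, against 16.3%). With runs of up to 1000 bp gaps they numbered 9 of 40 (22.5%, against 16.9%). With both channels above background they numbered 7 of 22 (31.8%, against 16.6%). Of the 26 regions, 3 to 6 had such a p with single arrays left out (11.5% to 23.1%, against 8.44% to 28.3% over the array). Without normal tolerance replicate 1 the share was 23.1%, against 28.3%. The reported fit tested 219 single probes in the locus and 113885 over the array, and some settings changed these numbers. Probes past an adjusted p of 0.05 numbered 9 with normexp (6456 over the array) and 2 with quantile normalisation (1801). They numbered 2 with both channels above background (229), 16 in the authors' table (6272) and 16 with the replicate block (4622). With single arrays left out they numbered 0 to 8, with 8 (4377 over the array) without normal tolerance replicate 1, when each group lies in a single scan. The replicate block rests on numbers that were not taken to pair the samples.

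The median difference lay between 0.0078 (loess) and 0.22 (gaps of up to 1000 bp) with all arrays, and between -0.024 and 0.22 with single arrays left out. The median level of the locus regions was -0.058 with normexp, against -0.30, while that of all regions was then 0.17. The sign changed for some named differences. At chr18:37797880-37799058 it was -0.0075 when centred on the tested probes, -0.13 with loess and -0.0093 with dim MeDIP spots raised and the arrays centred again. At chr18:37453627-37454924 it was -0.072 with loess, -0.0096 with no filter, also as tiles, and -0.045 in the authors' table. At chr18:37179369-37180310 it was -0.26 without normal tolerance replicate 1, with 0.74 as the highest value when other single arrays were left out. The regions at an unadjusted p under 0.05 split into 4 higher and 1 lower as reported, 3 and 1 when centred on the tested probes, 3 and 2 with loess, 4 and 2 with quantile and 8 and 0 with normexp. The share that was higher over the whole array was 84.2%, 58.6%, 34.3%, 55.4% and 97.2% in the same order. The median difference of all regions was 0.12 as reported, 0.04 when centred on the tested probes, -0.03 with loess and 0.17 with normexp. The cause of these changes was not tested. Dim input left 256 of the 475 locus probes untested in the reported fit.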

Other observations

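Some neighbouring tiles of the third span, chosen here after their values were seen, differed in opposite directions. Tile chr18:37910136-37911849 stood at -0.47, -0.37 and -0.22 in the glucose intolerance group and at -0.31, 0.52 and 0.45 in the normal tolerance group, a difference of -0.57 (limma adjusted p = 0.254). Its neighbour chr18:37914140-37915828, which holds the tested region at 37915161, stood at -0.73, -0.49 and -0.38 against -1.27, -1.14 and -1.09, a difference of 0.63 (limma adjusted p = 0.187). The groups overlapped in the first tile and not in the second. In the first tile 3 of 8 probes were kept, and its tested region, chr18:37911145-37911608, differed by only -0.03.

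In the second span, tile chr18:37559209-37560829 was lower in the glucose intolerance group on each array, at -0.77, -0.83 and -0.71 against -0.38, 0.14 and -0.48, a difference of -0.53 (limma adjusted p = 0.223). Only 1 of its 7 probes had input above background on all arrays, so it does not appear among the tested regions. The tiles chr18:37676712-37678488 and chr18:37132278-37133990 were higher by 0.63 and 0.61, without overlap (limma adjusted p = 0.243 and 0.253), and in both the lowest array was normal tolerance replicate 1. In each, 3 of 8 probes were kept. The kept probes of the tile at 37132278 differed by -0.24, 0.15 and 0.24. Its largest differences in group mean were at probes left out, chr18:37132278-37132337 (-0.83 against -3.06) and chr18:37132489-37132548 (-0.45 against -2.06). At both, input was well above background on all 3 normal tolerance arrays and on no glucose intolerance array.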
